A study of Mus musculus with 8 samples.

Results

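The data are the transcript levels of 7 genes known for early granulocyte precursors and their primary granules: Mpo, Elane, Prtn3, Ms4a3, Cd34, Kit and Flt3. They were taken by gene name from the 55487 genes of the annotation, and the level of a gene is the sum of the TPM of its transcripts. TPM, the StringTie measure of relative abundance, is corrected for transcript length, so levels of different genes can be compared. Of the 7 genes, 5 reached 1 TPM in 2 or more of the 8 libraries and were tested, and Kit and Flt3 did not.

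RNA sequencing was carried out on 2 sorted populations of C57BL/6J mouse bone marrow, each from wild-type littermate controls and from Nfil3-depleted mice, whose titles read floxed out and which are called Nfil3-deficient here. Each of the 4 groups held 2 libraries, described as biological duplicates. Both populations were sorted as Lineage-, CD34-, ckit- and CD200R3+. Cells with high staining by the MAR1 antibody, which binds the alpha chain of the IgE receptor, were taken as pre-Baso, and cells with intermediate staining as basophils. The gates therefore removed cells with CD34 or KIT protein on their surface from all 4 groups, while the transcripts of both genes could still be measured. The Cre driver, the ages and the number of mice per library are not given in the sources used here. The question posed by the design is how gene expression in basophil precursors and basophils differs without NFIL3, a basic leucine zipper transcription factor.

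Neutrophils, basophils, eosinophils and monocytes arise from shared granulocyte and monocyte progenitors. During the promyelocyte stage of neutrophil development, cells make the azurophil granules and pack them with myeloperoxidase and serine proteases such as neutrophil elastase, proteinase 3 and cathepsin G, and transcription of these genes stops in later stages. CD34, KIT and FLT3 are surface proteins of stem and progenitor cells that are lost as granulocytes mature, although mast cells keep KIT.

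The labels were checked first. Nfil3 was at 6.61 and 7.65 TPM in the 2 control pre-Baso libraries and at 20.5 and 22.5 TPM in the 2 control basophil libraries. It was at 0 and 0.624 TPM in Nfil3-deficient pre-Baso and at 0.853 and 1.32 TPM in Nfil3-deficient basophils, so the genotypes did not overlap. All 12 basophil markers passed the filter on low values, and their summed level was 20930 to 35170 TPM in pre-Baso and 5369 to 11140 TPM in basophils. Single markers went both ways. From pre-Baso to basophils, 6 of the 12 had a positive log2 change in controls and 7 in Nfil3-deficient mice. The median changes were -0.10 and 0.18, against 0.08 and 0.10 over all tested genes. Mcpt8, a basophil granule protease, was at 1.98 to 6.04 TPM in the 4 Nfil3-deficient libraries and at 969 to 7888 TPM in the controls. Since the Cre driver is not named, loss of Nfil3 and any other allele of these mice cannot be told apart in this difference. Of the 5 mast cell markers, Mcpt4, Tpsab1 and Mrgprb2 were listed at 0 in every library, and of the stem cell markers, Slamf1 was. The summed level of the mast cell markers was 2.553 and 2.001 TPM in Nfil3-deficient pre-Baso and 0.295 and 0.8392 TPM in control pre-Baso. It was 1.167 and 0.6458 TPM in Nfil3-deficient basophils and 0 in both control basophil libraries. The 1 tested mast cell marker was not called between genotypes (log2 differences 1.288 in pre-Baso and 0.9172 in basophils). Depth was 271.7 to 398 megabases of assigned coverage per library, and genes annotated as protein-coding took 18.7% to 22.4% of the TPM, so that a TPM of 1 is a larger share of the protein-coding total than of the whole.

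Both first basophil libraries stood apart in markers of other granulocytes. The control one had 2354 TPM of Prg2, an eosinophil granule protein, against 19.4 TPM in its duplicate, and the Nfil3-deficient one had 152 against 18.9 TPM. The summed level of 13 markers of later neutrophils was 2541 and 2252 TPM in these libraries, 1421 and 1339 TPM in the second basophil libraries and 802 to 1249 TPM in pre-Baso. The 9 monocyte and macrophage markers summed to 130 and 110 TPM, against 63.7 and 61.6 TPM in the second libraries. Calls of the 7 genes, of the gene lists and of the neighbouring genes were therefore also counted without these 2 libraries.

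The sequences before the first exon are shown for the 4 more abundant genes, because Mpo moved with Ms4a3 in these cells and less closely with Elane and Prtn3. Other protease genes of the granule, Ctsg and Prss57, were lower in control basophils than in control pre-Baso, as Mpo was (log2 changes -3.16 and -1.12). Prss57 was at only 1.30 to 5.87 TPM. Its call (adjusted p = 0.0379, limma) was lost without the filter on low values (adjusted p = 0.160, limma). The RefSeq table held promoter windows of all 7 genes in build GRCm38.p6, with 250 bases before and 50 after the RefSeq start. The annotation of the deposited data places the first exon of Mpo, Elane and Prtn3 further upstream, inside these windows, so only the part of the window before that exon is printed, 5′ to 3′ on the strand of the gene. These are chr11:87793534-87793580 for Mpo, chr10:79886062-79886246 for Elane and chr10:79879417-79879613 for Prtn3, all on the plus strand, and chr19:11640852-11641101 for Ms4a3, on the minus strand. For Prtn3 the exon is that of 1 of its 6 transcripts, and the window lies inside the gene. Capitals mark, in Mpo, Elane and Prtn3, the letters GAGGAA and their extension GAGGAAGT, which resemble the site of PU.1, and in Ms4a3 letters of the C/EBP pattern TTNNGNAA.
Mpo: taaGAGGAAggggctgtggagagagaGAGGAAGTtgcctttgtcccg
Elane: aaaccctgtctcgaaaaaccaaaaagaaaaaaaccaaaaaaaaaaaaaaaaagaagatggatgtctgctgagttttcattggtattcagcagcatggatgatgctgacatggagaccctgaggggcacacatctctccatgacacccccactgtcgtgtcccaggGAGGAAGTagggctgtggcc
Prtn3: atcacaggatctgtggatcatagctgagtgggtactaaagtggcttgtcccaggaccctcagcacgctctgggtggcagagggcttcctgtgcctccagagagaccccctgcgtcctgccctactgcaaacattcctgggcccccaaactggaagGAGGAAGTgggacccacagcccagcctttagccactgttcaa
Ms4a3: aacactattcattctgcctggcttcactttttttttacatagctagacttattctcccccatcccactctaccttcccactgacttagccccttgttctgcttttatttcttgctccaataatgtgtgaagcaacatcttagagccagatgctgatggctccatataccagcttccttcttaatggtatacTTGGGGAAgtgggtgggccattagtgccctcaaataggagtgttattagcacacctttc

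The letters GAGGAAGT began 21 bases before the exon in Mpo, 20 in Elane and 42 in Prtn3 (positions -224, -85 and -95 from the RefSeq start), and were absent from the windows of the other 4 genes. They occurred on either strand in 3.2% of the 32851 promoter windows of 300 bases in the table, and were chosen after the sequences had been seen. The shorter GAGGAA, which overlaps them, was found in 28.3% of windows and in 5 of the 7 genes, in Ms4a3 after the start at position 35. TTNNGNAA was found in 40.7% of windows and among the 7 genes only in Ms4a3, and the MYB letters AACNG in 80.3% of windows and in 5 of the 7. The RUNX letters TGTGGT (16.8% of windows), the GATA letters AGATAA (11.2%) and the NFIL3 letters TTANNTAA (6.0%) were in none of the 7. These are matches of letters and not measured binding sites.

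Mpo encodes myeloperoxidase, the peroxidase of azurophil granules, and lies on chromosome 11 at 87793581 to 87804413 in build mm10. Its level was 228 and 227 TPM in control pre-Baso, 204 and 172 TPM in Nfil3-deficient pre-Baso, 41.3 and 23.4 TPM in control basophils and 50.9 and 91.1 TPM in Nfil3-deficient basophils. All 4 pre-Baso libraries were above all 4 basophil libraries, as was so for 13.1% of all tested genes, and the Nfil3-deficient basophils lay between the control basophils and pre-Baso. Among 21974 protein-coding genes, Mpo ranked 110 to 169 from the top in pre-Baso and 347 to 1204 in basophils.

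Ms4a3 encodes a membrane-spanning protein of granulocyte and monocyte progenitors and lies on chromosome 19 at 11629496 to 11640851, on the minus strand. Its level was 188 and 178 TPM in control pre-Baso, 180 and 137 TPM in Nfil3-deficient pre-Baso, 27.7 and 18.0 TPM in control basophils and 31.6 and 46.9 TPM in Nfil3-deficient basophils. The pattern repeated that of Mpo: the populations did not overlap, and the Nfil3-deficient basophils were both above the control basophils. In each of the 8 libraries Mpo was the higher of the pair.

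Elane encodes neutrophil elastase and lies on chromosome 10 at 79886247 to 79888215. Its level was 34.5 and 21.0 TPM in control pre-Baso, 20.3 and 12.4 TPM in Nfil3-deficient pre-Baso, 29.6 and 10.3 TPM in control basophils and 16.4 and 14.2 TPM in Nfil3-deficient basophils. The highest and the lowest value thus lay in control libraries, the populations overlapped, and the control basophil duplicates differed more from each other than the group means did.

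Prtn3 encodes proteinase 3 and lies 3.1 kb before Elane, at 79874476 to 79883174. Its level was 16.5 and 10.5 TPM in control pre-Baso, 9.38 and 8.86 TPM in Nfil3-deficient pre-Baso, 14.9 and 5.33 TPM in control basophils and 10.7 and 7.06 TPM in Nfil3-deficient basophils. As for Elane, the first control basophil library was close to the first control pre-Baso library, and the populations overlapped. Elane exceeded Prtn3 in each of the 8 libraries. The plot of levels by library shows the 2 patterns side by side.

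**Figure D1:**
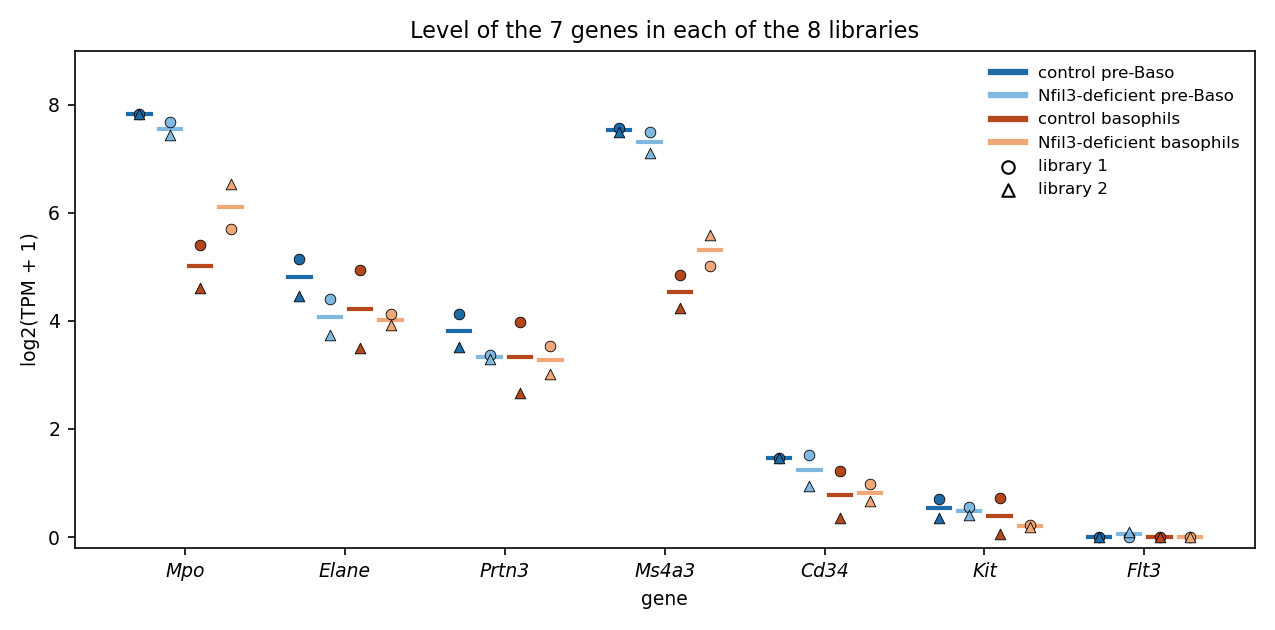
Level of each of the 7 genes, as log2(TPM + 1) on the vertical axis, in the 8 libraries; circles and triangles are the first and second library of a group and bars are group means. Mpo and Ms4a3 separate pre-Baso (172 to 228 and 137 to 188 TPM) from basophils (23.4 to 91.1 and 18.0 to 46.9 TPM), while Elane, Prtn3, Cd34 and Kit overlap and Flt3 is at or near 0.

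Basophils were compared with pre-Baso in control mice, to see which of these genes differed between the 2 populations. Mpo and Ms4a3 fell and the other 3 tested genes did not pass the test. The mean of Mpo was 227 ± 0.718 TPM in pre-Baso and 32.4 ± 12.7 TPM in basophils (SD, n = 2 each), 7.02 times lower. On log2(TPM + 1), the scale of every log2 change given here, its change was -2.83 (SE 0.31, adjusted p = 0.000841, limma). Ms4a3 had means of 183 ± 6.81 and 22.8 ± 6.86 TPM (SD, n = 2 each), 8.03 times lower, and a log2 change of -2.98 (SE 0.26, adjusted p = 0.000415, limma). Called genes made up 22.6% of the 12511 genes tested in this comparison, genes called lower 10%, so 2 of 5 genes called is a small count beside a frequent result. In these bulk samples fewer cells with the transcript and less transcript per cell cannot be told apart.

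Elane had means of 27.7 ± 9.60 TPM in control pre-Baso and 20.0 ± 13.6 TPM in control basophils (SD, n = 2 each). The log2 change was -0.59 with a 95% interval of -1.61 to 0.44 (adjusted p = 0.387, limma), an interval that does not reach the values of Mpo and Ms4a3. Prtn3 had a log2 change of -0.50 with an interval of -1.43 to 0.43 (adjusted p = 0.420, limma). Both values rested on the first control basophil library, the one with high Prg2 and neutrophil markers. Without it, Elane changed by -1.30 and Prtn3 by -1.16, and these values were the same with both first basophil libraries left out. The lack of a call for Elane and Prtn3 in controls, unlike Mpo and Ms4a3, is therefore not firm. Mpo and Ms4a3 kept their direction in all 20 alternatives. The part of the other granulocyte markers in the Elane and Prtn3 values was not tested.

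The same comparison was made in Nfil3-deficient mice. Mpo and Ms4a3 were again the called genes, 2 of 5, where 10.9% of all tested genes were called and 4.11% were called lower. Mpo had means of 188 ± 22.6 and 71.0 ± 28.4 TPM (SD, n = 2 each), 2.65 times lower, and a log2 change of -1.44 (SE 0.31, adjusted p = 0.0260, limma). Ms4a3 had means of 159 ± 30.9 and 39.3 ± 10.9 TPM (SD, n = 2 each), 4.04 times lower, and a log2 change of -2.0 (SE 0.26, adjusted p = 0.00508, limma). The changes of Elane (-0.05, interval -1.08 to 0.97) and Prtn3 (-0.06, interval -0.99 to 0.87) were close to 0, and neither was called (adjusted p = 0.957 and 0.943, limma).

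These 2 calls were less stable than those in controls. That of Mpo was lost without the first Nfil3-deficient pre-Baso library (adjusted p = 0.156), the second (0.0720) or the first Nfil3-deficient basophil library (0.125, log2 change -1.03), in a fit of the compared groups alone (0.0517) and without the filter on low values (0.125), all by limma. That of Ms4a3 was lost without the first Nfil3-deficient pre-Baso library (adjusted p = 0.0594, limma). Without both first basophil libraries neither was called (adjusted p = 0.108 for Mpo, log2 change -1.03, and 0.0969 for Ms4a3, log2 change -1.72, limma). Direction was the same in all 20 alternatives for both genes.

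**Figure D2:**
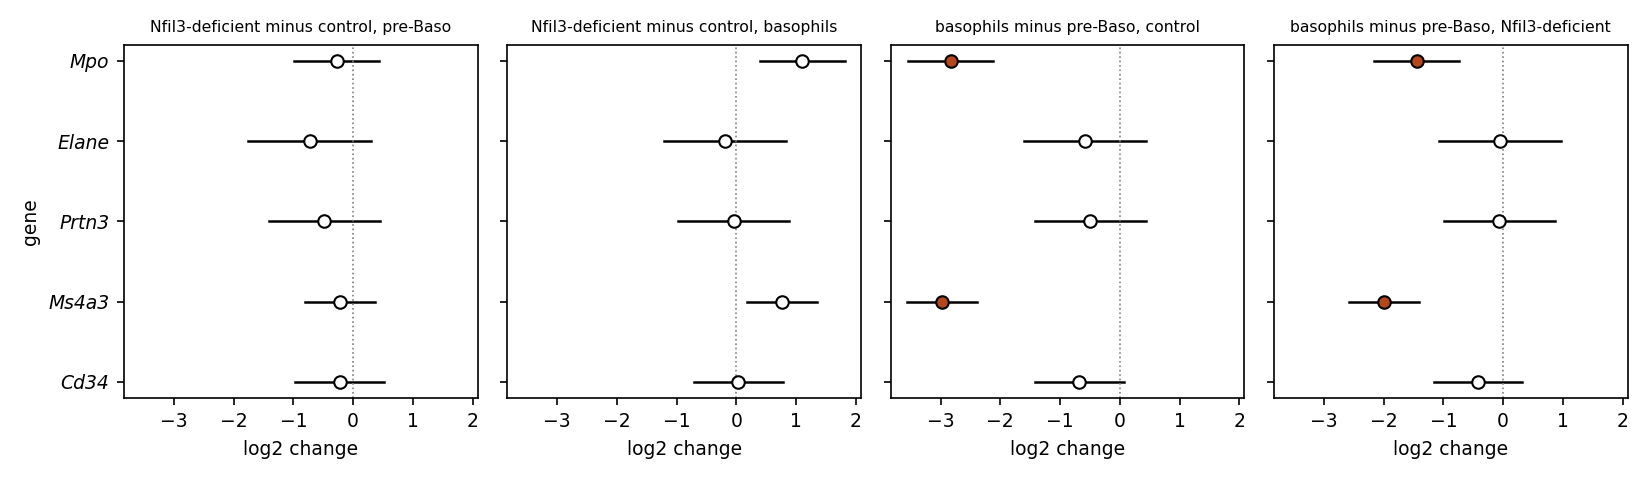
Log2 change of the 5 tested genes in 4 comparisons, one panel each, with bars for the 95% interval from limma; filled points passed an adjusted p of 0.05. Filled points are Mpo and Ms4a3 in the 2 comparisons of basophils with pre-Baso, at -2.83 and -2.98 in controls and at -1.44 and -2.0 in Nfil3-deficient mice.

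The members were also set against each other within libraries, as the ratio of 2 genes, which is little affected by the scaling of a library. The 6 pairs of the 4 more abundant genes were chosen after the levels had been seen, so their ratios are given as a description with no test. The log2 ratio of Mpo to Elane was 2.69 to 3.69 in the 4 pre-Baso libraries and 0.47 to 2.59 in the 4 basophil libraries, a mean difference of -1.82. That of Mpo to Prtn3 differed by -1.86. Neither ratio overlapped between the populations, and Mpo thus stood closer to both protease genes in basophils.

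The ratio of Elane to Prtn3 overlapped: on the log2 scale it was 0.44 to 1.04 in pre-Baso and 0.58 to 0.95 in basophils, a mean difference of -0.04. For Mpo over Ms4a3 the log2 ratio was 0.17 to 0.34 in pre-Baso and 0.37 to 0.94 in basophils, a difference of 0.36, so Ms4a3 was further below Mpo in basophils. Elane and Prtn3 over Ms4a3 differed by 2.17 and 2.21 without overlap. Leaving out both first basophil libraries gave -1.40 for Mpo over Elane and 1.78 for Elane over Ms4a3.

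**Figure D3:**
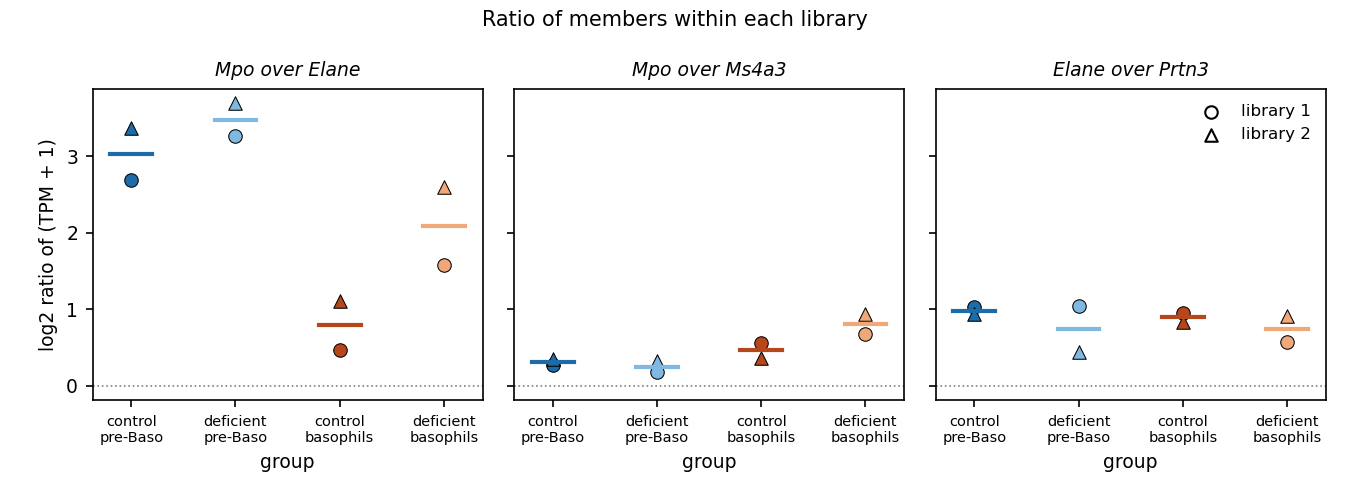
Log2 ratio of (TPM + 1) of 2 genes within each library, by group, with bars for group means. Mpo over Elane is lower in every basophil library (0.47 to 2.59) than in every pre-Baso library (2.69 to 3.69), Mpo over Ms4a3 is higher in every basophil library, and Elane over Prtn3 overlaps.

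Coverage of single exons showed where along the genes the differences lay. The Mpo transcript with 14 exons carried 75.2% to 91.9% of the gene's TPM, and in all 14 exons the lowest pre-Baso library was above the highest basophil library. In exon 13 the mean coverage per base was 200 to 278 in pre-Baso and 16.0 to 99.9 in basophils. The main transcript of Ms4a3, with 78.7% to 96.5% of the gene's TPM, had no overlap in any of its 7 exons. Elane has 1 annotated transcript, and the populations overlapped in each of its 5 exons. For Prtn3 the share of TPM given to a transcript varied widely between libraries, from 0% to 94.1% for one of them, so its levels are used only as the sum over the gene.

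**Figure D4:**
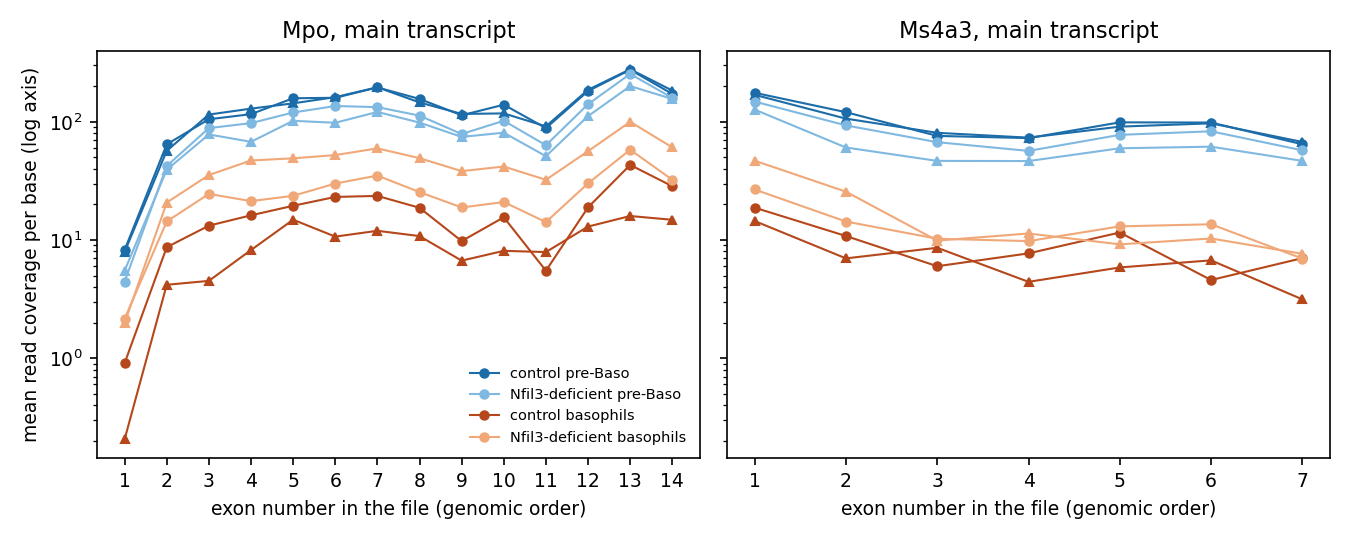
Mean read coverage per base of each exon of the main Mpo and Ms4a3 transcripts, on a log axis, in the 8 libraries; exons are numbered in genomic order, which for Ms4a3 runs from the 3′ end of the gene. In all 14 exons of Mpo and all 7 of Ms4a3 the basophil lines lie below the pre-Baso lines, with Nfil3-deficient basophils above control basophils in most exons.

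Nfil3-deficient and control cells of the same population were compared next. In pre-Baso, none of the 5 tested genes was called, where 0.0639% of all tested genes were called. The log2 changes were all below 0: -0.28 for Mpo, -0.73 for Elane, -0.48 for Prtn3, -0.22 for Ms4a3 and -0.23 for Cd34 (limma, adjusted p = 1 for each). Their 95% intervals all contained 0, the widest being that of Elane, -1.75 to 0.30. Both Nfil3-deficient libraries were below both controls for Mpo, Elane and Prtn3, an order that held for 19.3% of all tested genes. Over all tested genes, 548 had an unadjusted p under 0.05 in this comparison, none of them among these 5.

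In basophils, no gene of the 5 was called either, where 0.056% of all tested genes were called and 1065 had an unadjusted p under 0.05. Mpo was at 50.9 and 91.1 TPM against 41.3 and 23.4 TPM, a log2 difference of 1.10 with an interval of 0.39 to 1.82 (unadjusted p = 0.00694, adjusted p = 0.335, limma). Ms4a3 was at 31.6 and 46.9 against 27.7 and 18.0 TPM, a log2 difference of 0.76 with an interval of 0.18 to 1.35 (unadjusted p = 0.0167, adjusted p = 0.428, limma). For both genes the 2 Nfil3-deficient libraries were above the 2 control libraries, as in 17.2% of all tested genes. The difference was positive in all 20 alternatives and called in none, but its size depended on the libraries. It was 0.69 for Mpo and 0.48 for Ms4a3 without the second Nfil3-deficient library, 0.71 and 0.46 without the second control library, and 1.91 and 1.34 without both first basophil libraries. Elane, Prtn3 and Cd34 overlapped between genotypes, with log2 differences of -0.19, -0.05 and 0.03 (adjusted p = 0.951, 0.988 and 0.991, limma). Averaged over both populations the genotype effect was called for none of the 5, where 0.0879% of all tested genes were called.

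Whether the genotype effect differed between the populations was tested by the interaction. For Mpo it was 1.38 (SE 0.44, unadjusted p = 0.0129, adjusted p = 0.897, limma) and for Ms4a3 0.98 (SE 0.36, unadjusted p = 0.0251, adjusted p = 0.897, limma). No gene of the whole table passed (0.0% of those tested), while 689 had an unadjusted p under 0.05. The smaller difference between populations in Nfil3-deficient mice than in controls, 2.65 against 7.02 times for Mpo, was therefore not past the threshold.

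Genes of dividing cells moved with Mpo and Ms4a3. The summed level of 11 such genes was 335 to 444 TPM in pre-Baso, 45.2 and 46.2 TPM in control basophils and 84.9 and 148 TPM in the 2 Nfil3-deficient basophil libraries, the second of which also had the higher Mpo and Ms4a3. With all 8 libraries, 10% of all tested genes were called lower in control basophils than in control pre-Baso. All 11 were called lower in control basophils than in pre-Baso, also without both first basophil libraries. In Nfil3-deficient mice 10 were called lower, where 4.11% of all tested genes were, and 0 without those libraries. Birc5, an inhibitor of apoptosis needed for cell division, was called higher in Nfil3-deficient than in control basophils (log2 change 2.61, adjusted p = 0.0231, limma), a call lost in 10 of 20 alternatives. Their part in the Mpo and Ms4a3 values was not tested. Markers of later neutrophils did not follow Mpo: their sum was highest in the 2 first basophil libraries, in which Mpo was at 41.3 and 50.9 TPM, below every pre-Baso library.

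Cd34 encodes a sialomucin of progenitor cells and lies on chromosome 1 at 194938819 to 194961279. Its level was 1.77 and 1.75 TPM in control pre-Baso, 1.88 and 0.932 TPM in Nfil3-deficient pre-Baso, 1.33 and 0.276 TPM in control basophils and 0.966 and 0.579 TPM in Nfil3-deficient basophils. Control pre-Baso lay above control basophils without overlap, as in 26.3% of all tested genes, and the other comparisons overlapped. The change in controls was -0.68 with an interval of -1.42 to 0.06 (adjusted p = 0.171, limma) and in Nfil3-deficient mice -0.42 with an interval of -1.16 to 0.32 (adjusted p = 0.437, limma). At such levels, 1 TPM or so, the pseudocount of 1 understates a change.

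Kit encodes the receptor of stem cell factor and lies on chromosome 5 at 75574916 to 75656722. It was at 0.637 and 0.276 TPM in control pre-Baso, 0.474 and 0.326 TPM in Nfil3-deficient pre-Baso, 0.641 and 0.0335 TPM in control basophils and 0.171 and 0.144 TPM in Nfil3-deficient basophils. Every library was under 1 TPM, and the widest gap was between the 2 control basophil libraries. Of the 21 exons of its most abundant transcript, 0 to 9 had any coverage, depending on the library.

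Flt3, the receptor of FLT3 ligand, lies on the same chromosome at 147330741 to 147400489. It was listed at 0 in 7 libraries and at 0.0687 TPM in the second Nfil3-deficient pre-Baso library, from 153 assigned bases. No comparison was made for Kit or Flt3, and a listed 0 cannot be read as absence, since read numbers are not given.

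The order of the 7 genes was Mpo, Ms4a3, Elane, Prtn3, Cd34, Kit and Flt3 by the mean over the 8 libraries, from 130 TPM for Mpo over 19.8 TPM for Elane, 10.4 TPM for Prtn3 and 1.18 TPM for Cd34 to 0.338 TPM for Kit and 0.00859 TPM for Flt3. In the first control basophil library Elane (29.6 TPM) was above Ms4a3 (27.7 TPM), and in the other 7 libraries the order of the 4 more abundant genes was that of the means. Elane, Prtn3, Cd34 and Kit were higher in the first than in the second library of all 4 groups, which held for 2.88% of all tested genes, while 11.4% were higher in the second library of all 4 groups.

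Other proteins of the azurophil granule and of its assembly were taken from a list of 13 genes, all of them tested. In controls 6 were called lower in basophils and 1 higher, where 10% of all tested genes were called lower and 12.6% higher. The median log2 change was -0.27 against 0.08 over all tested genes. Ctsg, cathepsin G, fell from 745 and 841 TPM to 85.1 and 90.4 TPM (log2 change -3.16, adjusted p = 0.000236, limma). Calr and Canx, chaperones of the endoplasmic reticulum that assist the folding of myeloperoxidase, fell by 1.78 and 1.14 on the log2 scale (adjusted p = 0.00329 and 0.00911, limma). Prss57, a further serine protease of these granules, changed by -1.12, Serpinb1a, an inhibitor of such proteases, by -0.64, and Srgn, the granule proteoglycan serglycin, by -0.49 (adjusted p = 0.0379, 0.0489 and 0.0265, limma). Lyz2, the lysozyme shared by neutrophils and macrophages, rose by 1.59 (adjusted p = 0.0357, limma), with its highest values, 679 and 637 TPM, in the 2 first basophil libraries. Without those libraries Ctsg, Calr and Canx remained called lower and none was called higher, and over the 20 alternatives 2 to 7 were called lower.

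In Nfil3-deficient mice 2 of the 13, Ctsg and Calr, were called lower in basophils, by -1.82 and -1.15 (adjusted p = 0.00470 and 0.0347, limma), and neither was called without both first basophil libraries. With all 8 libraries, 4.11% of all tested genes were called lower in this comparison. Between genotypes in pre-Baso, none of the 13 was called, where 0.0639% of all tested genes were. Ctsg was there at 1857 and 1486 TPM without Nfil3 (log2 difference 1.07, adjusted p = 0.404, limma). In basophils, where 0.056% of all tested genes were called between genotypes, Ctsg alone was called. It was at 375 and 592 TPM in the Nfil3-deficient libraries, a log2 change of 2.41 from the control basophils (SE 0.21, adjusted p = 0.00505, limma). Averaged over both populations its genotype effect was 1.74 (adjusted p = 0.00359, limma). As for Mcpt8, loss of Nfil3 and any other allele of these mice cannot be told apart in these Ctsg differences. The call in basophils was lost in a fit of these groups alone (adjusted p = 0.222), without the filter on low values (0.0659) and without both first basophil libraries (0.0666).

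Transcription factors of granulocyte and stem cell progenitors made a list of 19 genes, of which 16 were tested. In controls 4 were called higher in basophils and 2 lower, where 12.6% of all tested genes were called higher and 10% lower, with a median of 0.27. Spi1, which encodes PU.1, rose by 1.08 (adjusted p = 0.00143, limma), from 45.7 and 52.9 TPM to 107 and 104 TPM. Tal1, Myc and Cebpd rose by 1.08, 0.84 and 0.80, while Myb, a factor of progenitor cells, fell by 1.10 (adjusted p = 0.0475, limma) and Cebpb by 0.93 (adjusted p = 0.0286, limma). Cebpa, required for granulocyte progenitors to form, was at 78.3 to 110 TPM in all 8 libraries, with a change of 0.07 (adjusted p = 0.822, limma). Gfi1 was at 0.633 to 1.97 TPM. Cebpe, a factor of later granule genes, was at 1.09 to 2.19 TPM except for 8.45 TPM in the first control basophil library. Without both first basophil libraries, Spi1 and Myb were the factors still called, and the call of Myb was lost in 10 of the 20 alternatives. In Nfil3-deficient mice Cebpd, Lmo2, Myc, Spi1 and Tal1 were called higher, 5 of 16, and none lower, and without both first basophil libraries 0 were called. With all 8 libraries, 6.79% of all tested genes were called higher and 4.11% lower in the basophils of these mice. None of the 16 was called between genotypes in either population, where 0.0639% of all tested genes were called in pre-Baso and 0.056% in basophils.

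Ligands, receptors and signalling proteins around KIT and FLT3 made a list of 17 genes, of which 16 were tested. In controls 6 were called higher in basophils and none lower, where 12.6% of all tested genes were called higher and 10% lower. The median was 0.68. Csf2rb, the beta chain shared by the receptors of IL-3, IL-5 and GM-CSF, and Csf2rb2, a beta chain of the mouse IL-3 receptor, rose by 1.43 and 1.66 (adjusted p = 0.00187 and 0.000839, limma); the 2 genes are close copies, and reads may be split between them. Gab2, an adaptor of KIT and of the IgE receptor, rose by 1.24 (adjusted p = 0.00391, limma). Flt3l, the ligand of FLT3, rose from 12.4 and 17.1 TPM to 24.7 and 29.3 TPM (0.84, adjusted p = 0.0142, limma), and Kitl, the ligand of KIT, was at 0 to 0.123 TPM. The first 3 of these were still called without both first basophil libraries. In Nfil3-deficient mice 5 were called higher, as were 6.79% of all tested genes, and none lower, among them Flt3l at 1.53 (adjusted p = 0.00473, limma). Without both first basophil libraries 0 of these were called (Flt3l 1.54, adjusted p = 0.102, limma), and none of the 16 was called between genotypes.

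Surface genes of stem and progenitor cells made a list of 13 genes, of which 9 were tested. Emb, embigin, was called higher in control basophils, by 1.33 (adjusted p = 0.00116, limma), and none lower, with a median of -0.16. Of all tested genes, 12.6% were called higher and 10% lower in this comparison, and 6.79% and 4.11% in that of Nfil3-deficient mice. Cd27, Cd48 and Cd93 had changes of -0.32, -0.37 and 0.15 and were not called (adjusted p = 0.481, 0.176 and 0.625, limma). Slamf1, Procr, Cd38 and Prom1 were under 1 TPM in every library. Without both first basophil libraries Emb was still called. In Nfil3-deficient mice Emb alone was called higher (0.82, adjusted p = 0.0184, limma), and not without those libraries (adjusted p = 0.155, limma).

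**Figure D5:**
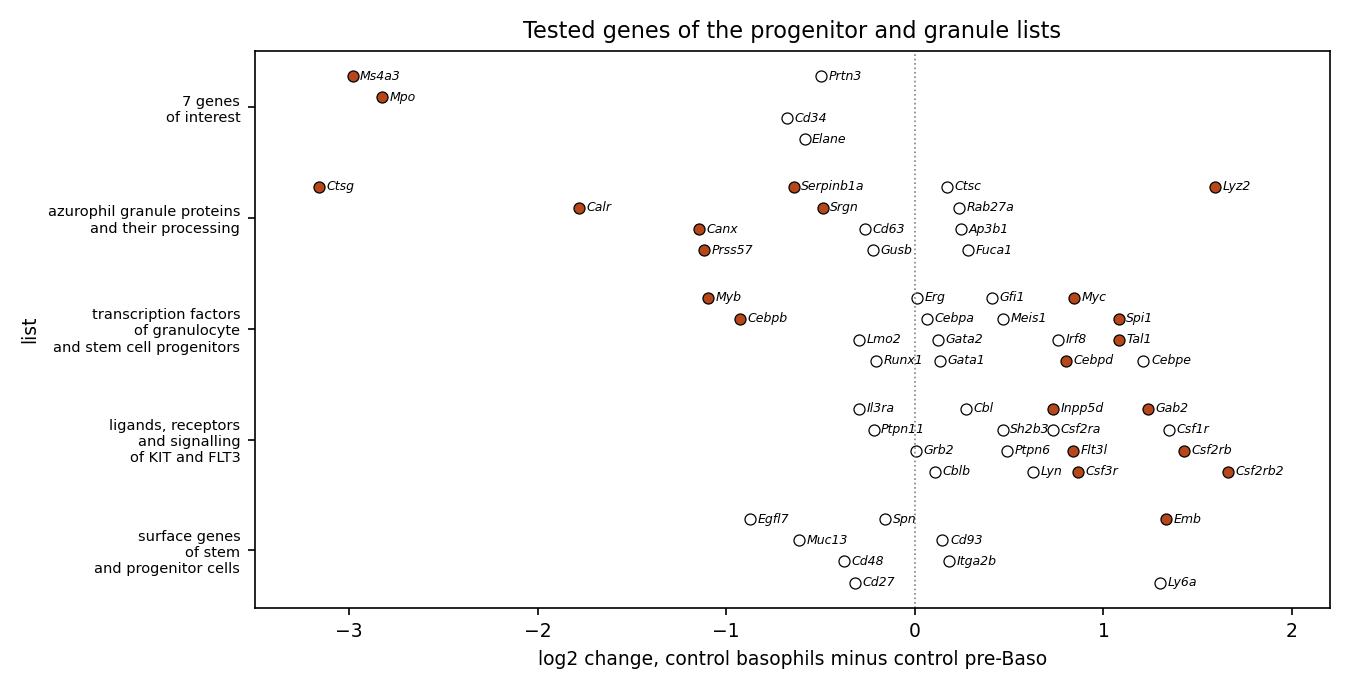
Log2 change of each tested gene between control basophils and control pre-Baso, for the 5 tested genes of interest and 4 lists of related genes; filled points passed an adjusted p of 0.05 by limma. Ms4a3, Mpo and Ctsg lie furthest to the left, between -3.16 and -2.83, and the filled points of the receptor and signalling list are all to the right of 0.

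Genes next to the members on the chromosome did not move with them as a block. Of all tested genes, 12.6% were called higher in control basophils than in control pre-Baso and 10% lower. Within 100 kb of Mpo lie 14 annotated genes, of which 7 were tested, 5 called higher in control basophils and none lower (2 higher without both first basophil libraries). Mir142hg, the host transcript of a microRNA of blood cells, was 36.3 kb away and rose by 1.28 (adjusted p = 0.0114, limma) while Mpo fell; without both first basophil libraries its change was 0.86 (adjusted p = 0.0817, limma). Epx, the eosinophil peroxidase gene 59.6 kb away, was at 49.7 TPM in the first control basophil library and at 0 to 2.84 TPM in the others. Next to Ms4a3, at 5.8 kb, Ms4a2, the beta chain of the IgE receptor, was at 209 and 286 TPM in control pre-Baso and 206 and 203 TPM in control basophils, a change of -0.26 (adjusted p = 0.642, limma). Around Elane and Prtn3, 2 of 11 tested genes were called lower and 1 higher. Those called lower were Prss57 and Ptbp1, a splicing regulator (-0.84, adjusted p = 0.0498, limma), and without both first basophil libraries none of the 11 was called.

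Genes with the most similar pattern were found by Pearson's r of log2(TPM + 1) over the 8 libraries, among 4064 tested genes. These had a mean of at least 5 TPM, and systematic names and pseudogenes were left out. They were not limited to protein-coding genes. The libraries form 2 populations, so a high r describes mainly the separation between them. For Mpo the closest were Plk1 (r = 0.996), Rpn2 (0.993) and Magohb (0.992), and for Ms4a3 they were Rangap1 (0.997), Cdc20 (0.993) and Clec12a (0.992). Mpo and Ms4a3 had an r of 0.986. For Elane the closest were H2-Q7 (0.936), Prtn3 (0.929) and Srsf9 (0.911), and for Prtn3 they were Elane (0.929), Srsf9 (0.867) and Gsto1 (0.856). Mpo and Elane had an r of 0.382, and Elane was 1249 in the order of likeness to Mpo. This r includes the first control basophil library, where Elane was at 29.6 TPM against 10.3 TPM in its duplicate. No r without that library is given.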

How the data were processed

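RNA was sequenced from 8 libraries in 4 groups of 2 (pre-Baso and basophils, control and Nfil3-deficient). Per the labels' protocols, total RNA was made into libraries with a SMARTER mRNA kit. Per the submitters' processing notes, the authors used HISAT2 and StringTie with build mm10. Per the file headers, StringTie 2.1.4 estimated annotated transcripts only, and no strand option was named. The authors deposited, per transcript, TPM, FPKM and coverage, and no read counts, so the number of reads behind a value is unknown. Assigned bases are coverage times length.

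TPM was summed per gene. A few transcript lines, among them those of Flt3, carry the gene name under another attribute and were matched by identifier. The 12511 genes that reached 1 TPM in 2 or more libraries were fitted on log2(TPM + 1) with limma 3.58.1 in R 4.3.3: 1 mean per group, 4 residual degrees of freedom, variance trend, two-sided. P-values were adjusted by Benjamini-Hochberg over all genes within each of 6 contrasts, and a gene was called under 0.05. P-values measure the spread between the deposited libraries. Ratios of 2 genes are described with no test.

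The members, the lists of related and marker genes and the rule for naming genes were chosen with earlier results of these data known. Of the listed genes, 2 were left out of the lists afterwards and are not reported here. The rule allows the members, Nfil3, all listed genes, genes within 100 kb of a member and the 3 genes most like each member above 5 TPM. Alternatives were FPKM, other scalings, pseudocounts, filters and moderation, only the compared groups, a replicate block and leaving out each library in turn. Leaving out both first basophil libraries and the ratios were added after the data had been seen. The fits that leave 1 library in a group assume that it varies like the others.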

Additional observations from a re-analysis of the deposited data

How the results depend on the processing

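With 2 libraries per group and no read numbers, changes of about 1 on the log2 scale and genes near 1 TPM could not be judged firmly. Without the first control basophil library, Elane and Prtn3 changed by -1.30 and -1.16 in controls, so the lack of a call for them there is not firm. In every alternative that kept both libraries of each group, the number of tested members called in control basophils against pre-Baso was 2. In Nfil3-deficient mice it was 2, but 1 without the filter on low values, 1 with only the compared groups fitted, 0 without both first basophil libraries and 0 to 2 without 1 library; the cause was not tested. The 4 genotype contrasts gave 0 members under every alternative run. Correlations of same-numbered deviations between groups were -0.054 to 0.057, except for 0.202 between the 2 basophil groups. With a replicate block 2, 2 and 0 members were called as before. Signs changed only for Elane, Prtn3 and Cd34, none of them called there. Without 1 library, the genotype effect in basophils was -0.91 to 0.52 for Elane, -0.71 to 0.61 for Prtn3 and -0.40 to 0.47 for Cd34, and in pre-Baso -0.51 to 0.060 for Cd34. The mean genotype effect was -0.60 to 0.065 for Prtn3 and -0.31 to 0.12 for Cd34. Control basophils against pre-Baso gave -1.30 to 0.13 for Elane and -1.16 to 0.17 for Prtn3, and Nfil3-deficient ones -0.39 to 0.29 and -0.33 to 0.20. The interaction was -0.18 to 1.25 for Elane, -0.23 to 1.10 for Prtn3 and -0.17 to 0.69 for Cd34, and the change of the Elane to Prtn3 ratio -0.18 to 0.042. Without both first basophil libraries, the genotype effect in basophils was 0.43 for Elane and 0.35 for Prtn3, the mean genotype effect 0.040 for Cd34 and the Elane to Prtn3 change 0.019. Prtn3 in basophils had a genotype effect of 0.033 by FPKM and 0.024 with TPM rescaled to protein-coding genes, and Cd34 one of -0.00223 with a pseudocount of 5. Over all genes, calls between the populations of Nfil3-deficient mice fell from 1363 to 298 without the filter on low values, 562 with only the compared groups fitted and 4 without both first basophil libraries, and were 19 to 1237 without 1 library (19 without the first Nfil3-deficient pre-Baso library, 228 without the first Nfil3-deficient basophil library).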
